A study of Homo sapiens with 6 samples.

Results

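The genes described here are 10 members of the autophagy conjugation system: the ATG8 genes MAP1LC3B, GABARAP, GABARAPL1 and GABARAPL2, and the genes ATG7, ATG3, ATG10, ATG12, ATG5 and ATG16L1, whose products attach ATG8 proteins to membranes. They were taken by symbol from the deposited table of read counts, which holds 29122 genes, and all 10 were found and all 10 passed the filter on low counts that left 15907 tested genes. A549 is a human lung carcinoma epithelial cell line. BCLAF1-depleted cells (3 libraries) carried a stably integrated lentiviral short hairpin RNA against BCLAF1, a nuclear protein linked to transcription and RNA processing. The hairpin is given by the treatment protocol, whereas the titles of these libraries begin with "si". Control cells (3 libraries) carried a hairpin against firefly luciferase, which has no target in human cells, so cells of both groups had been transduced and carried a hairpin. Separate cultures are not mentioned for the 3 libraries of a group, and the p-values thus rest on variation among libraries that may be only technical. The study's title links the work to autophagy flux, to the Mediator subunit MED23 and to premature senescence.

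Autophagy wraps cytoplasm in a double membrane that later fuses with the lysosome. ATG8 proteins resemble ubiquitin and are joined to a membrane lipid through a chain of enzymes. ATG7 acts as the activating enzyme (E1) for both ATG8 proteins and ATG12. ATG3 is the conjugating enzyme (E2) that passes ATG8 on to the lipid, and ATG10 is the E2 that passes ATG12 on to ATG5. The ATG12-ATG5 conjugate binds ATG16L1, which places it at the growing membrane, where it acts as the ligase (E3) for ATG8. Lipid-bound LC3B, the product of MAP1LC3B, is widely used to follow autophagosomes, whereas GABARAP-type proteins are known for roles in later steps. Transcript levels, which were measured here, do not report conjugation.

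Library totals were 33409158 to 40820922 counts in the BCLAF1-depleted libraries and 41019185 to 43928927 in controls. At these depths every one of the 10 genes had at least 177 counts in each library. BCLAF1 itself had CPM (counts scaled to a common library size by the trimmed mean of M-values, TMM) of 39.0, 35.7 and 53.1 in the BCLAF1-depleted libraries and 211.1, 199.0 and 203.2 in the control libraries (log2 fold change -2.26 ± 0.16, edgeR adjusted p = 2.31e-05). MED23, a Mediator subunit gene, averaged 4.74 ± 1.75 CPM in BCLAF1-depleted and 6.98 ± 1.17 CPM in control libraries (SD, n = 3 each), which did not pass the test (log2 fold change -0.56 ± 0.24, edgeR adjusted p = 0.0955). It was past the threshold without BCLAF1-depleted replicate 1 (-0.93, adjusted p = 0.00306), when genes of low counts were kept (-0.60, adjusted p = 0.00824) and with the replicate block (-0.60, adjusted p = 0.0456). The BCLAF1-depleted libraries were less alike (Pearson r of log2 CPM 0.9802 to 0.9845) than the controls (0.9938 to 0.9951). Transcripts of the mitochondrial genome took 11.4, 10.5 and 19.3% of counts in BCLAF1-depleted replicates 1 to 3 and 10.7 to 11.1% in controls. Of 5 epithelial markers, KRT8, KRT18, CDH1 and EPCAM were present at 11.4 FPKM or more in every library, while KRT19 lay at 0.24 to 0.41 FPKM after depletion and 0.15 to 0.23 FPKM in controls. Summed markers of blood cells (CD3E was not among the listed genes) and of endothelial cells reached at most 0.64 FPKM in any library. Fibroblast markers summed to 1.77 to 2.2 FPKM after depletion and 3.55 to 4 FPKM in controls, mostly from COL1A1, and their part in the results was not tested.

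Of the 10 genes, 2 rose (ATG12 and GABARAP), 1 fell (ATG16L1) and 7 did not pass the threshold of an adjusted p under 0.05 (edgeR quasi-likelihood test, Benjamini-Hochberg over all tested genes). Among all tested genes, 17.8% were called higher and 18% lower, so 3 calls among 10 lie close to the share of the whole transcriptome. The median log2 fold change of the 10 was -0.03, beside 0.02 over all tested genes. In this fit both the largest log2 rise (ATG12) and the largest fall (ATG16L1) among the 10 belonged to the ATG12-ATG5-ATG16L1 ligase. In bulk RNA, fewer cells with a transcript and less of it per cell cannot be told apart. Scaling mattered for the split of calls, which was 2827 higher and 2870 lower genes with TMM, and 1283 higher (8.07%) and 3662 lower (23%) with library totals as the only scaling, where the median gene lay at -0.21. Under that scaling none of the 10 genes was called higher and 1, ATG16L1, was called lower. Without BCLAF1-depleted replicate 1, where 23% of all tested genes were called higher and 25.8% lower, 3 of the 10 were higher and 3 lower. Calls added there were ATG7 as higher and ATG5 and GABARAPL1 as lower. Without any other 1 library, ATG12 was the only gene of the 10 called higher and ATG16L1 the only one called lower.

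**Figure D1:**
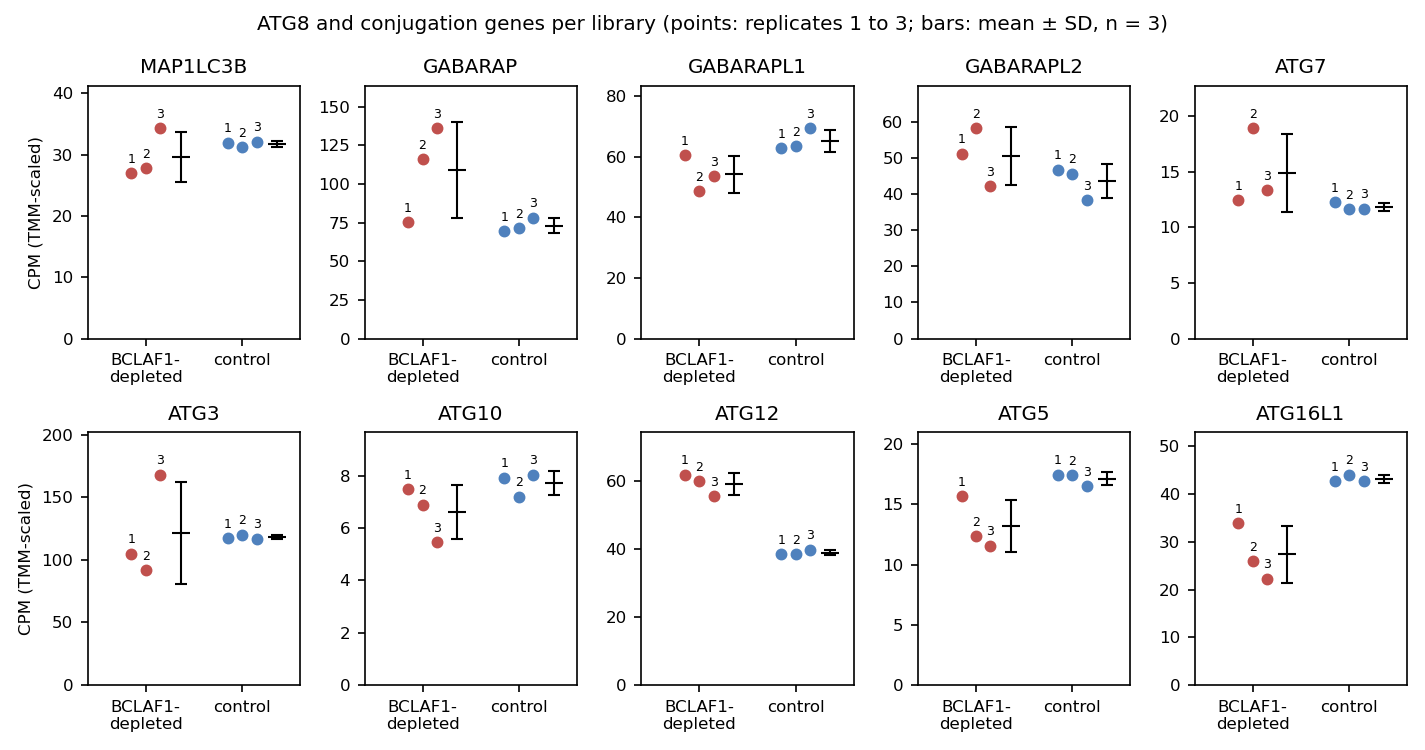
CPM of each gene (vertical axis, TMM-scaled, from 0) in BCLAF1-depleted libraries (red, left) and control libraries (blue, right), with points numbered by replicate and bars for mean ± SD (n = 3). ATG12 lies above its controls and ATG16L1 below them in all 3 BCLAF1-depleted libraries, while GABARAP replicate 1, at 75.3 CPM, sits within the control range of 69.4 to 78.3 CPM.

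The promoters of the genes that passed the test are shown because ATG12 and ATG16L1, whose products work in the same complex, changed in opposite directions. That of ATG3 is added because it alone among the 10 holds the E-box CACGTG, a motif bound by factors of the TFEB and MITF family that act on autophagy genes. Each window covers 250 bases before to 50 after the RefSeq gene start (GRCh38.p14), 5′ to 3′ on the gene's strand, and capitals mark CACGTG or the ETS-type motif CCGGAAG on either strand. The RefSeq start of ATG16L1 used here lies inside the GENCODE gene span given further on. The windows are chr2:233251423-233251722 (plus strand) for ATG16L1, chr5:115841516-115841815 (minus strand) for ATG12, chr17:7242400-7242699 (minus strand) for GABARAP and chr3:112561913-112562212 (minus strand) for ATG3.
ATG16L1: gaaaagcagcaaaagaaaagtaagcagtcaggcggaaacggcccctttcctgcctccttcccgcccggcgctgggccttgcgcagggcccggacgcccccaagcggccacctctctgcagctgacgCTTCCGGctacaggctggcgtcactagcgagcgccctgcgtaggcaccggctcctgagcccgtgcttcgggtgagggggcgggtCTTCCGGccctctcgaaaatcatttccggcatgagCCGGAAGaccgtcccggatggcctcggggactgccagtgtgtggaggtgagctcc
ATG12: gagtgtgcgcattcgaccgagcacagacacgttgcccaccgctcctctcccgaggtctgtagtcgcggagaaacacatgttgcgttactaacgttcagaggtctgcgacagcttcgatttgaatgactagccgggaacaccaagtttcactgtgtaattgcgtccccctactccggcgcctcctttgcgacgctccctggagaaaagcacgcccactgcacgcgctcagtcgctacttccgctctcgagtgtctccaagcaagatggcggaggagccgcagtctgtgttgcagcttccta
GABARAP: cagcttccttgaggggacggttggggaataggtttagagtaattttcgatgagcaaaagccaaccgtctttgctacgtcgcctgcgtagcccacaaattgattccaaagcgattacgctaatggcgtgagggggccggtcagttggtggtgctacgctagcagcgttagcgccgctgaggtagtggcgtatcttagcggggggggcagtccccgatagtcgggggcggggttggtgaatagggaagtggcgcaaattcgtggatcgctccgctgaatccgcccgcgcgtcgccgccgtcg
ATG3: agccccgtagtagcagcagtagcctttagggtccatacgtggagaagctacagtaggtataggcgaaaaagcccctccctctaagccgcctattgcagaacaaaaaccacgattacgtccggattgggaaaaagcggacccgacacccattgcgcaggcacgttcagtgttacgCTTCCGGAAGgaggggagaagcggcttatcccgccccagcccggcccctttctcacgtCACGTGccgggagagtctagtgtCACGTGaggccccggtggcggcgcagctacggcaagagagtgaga

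ATG16L1 held 3 copies of the ETS-type motif, the most of any window among the 10 genes, at 124, 40 and 5 bases before the start. The windows of ATG12 and GABARAP held none of the 4 motifs searched on both strands, which besides the E-box and the ETS-type motif were the forkhead motif (TGTTTAC) and the motif TGACTCA of the dimeric factor AP-1. ATG3 held 2 copies of the E-box, and 2 of the ETS-type motif that overlap on opposite strands. The ETS-type motif was also present in the windows of GABARAPL2, ATG7 and 1 of 2 listed starts of ATG5, so 5 of the 10 genes carried it. It occurs in 10.3% of 35116 RefSeq promoter windows of this length, the E-box in 7.26%, the forkhead motif in 3.42% and the AP-1 motif in 4.95%. These rates are per window and not matched for GC content, whereas the count of 5 is per gene, so they are not directly comparable. A match describes letters in a window and says nothing on binding in these cells.

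Per unit of gene length, by the authors' FPKM (fragments scaled by transcript length and library size), the 10 genes spanned from 0.85 to 41.5 FPKM over the 6 libraries. In BCLAF1-depleted cells the order of mean FPKM was GABARAP (37.2), ATG3 (30.8), GABARAPL2 (29.6), GABARAPL1 (14.5), ATG12 (10.9), MAP1LC3B (7.71), ATG16L1 (6.40), ATG5 (3.13), ATG7 (2.37) and ATG10 (1.2). In control cells it was ATG3 (37.3), GABARAP (31.2), GABARAPL2 (30.9), GABARAPL1 (21.1), ATG16L1 (12.1), MAP1LC3B (10.2), ATG12 (8.69), ATG5 (4.88), ATG7 (2.31) and ATG10 (1.68). Among controls the ranges of neighbours overlapped for GABARAP and GABARAPL2 alone, and every other neighbouring pair was separated. After depletion the ranges overlapped among GABARAP, ATG3 and GABARAPL2, and also between GABARAPL1 and ATG12, MAP1LC3B and ATG16L1, and ATG5 and ATG7. Among ATG12, ATG16L1 and MAP1LC3B, ATG12 had the highest FPKM in every BCLAF1-depleted library and the lowest in every control library.

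ATG12 codes for the ubiquitin-like protein that is joined to ATG5. It had 61.9, 59.9 and 55.6 CPM in BCLAF1-depleted replicates 1, 2 and 3 and 38.6, 38.6 and 39.9 CPM in control replicates 1 to 3. All depleted libraries were above all controls, and their spread was small beside the gap (59.2 ± 3.24 CPM after depletion and 39.0 ± 0.748 CPM in controls, SD, n = 3 each). The log2 fold change was 0.60 ± 0.11 (SE), a 1.52-fold higher level (edgeR adjusted p = 0.0033), and it stayed past the threshold whichever 1 of the 6 libraries was left out. With library totals alone it was 0.38 (adjusted p = 0.102), and on log2(FPKM + 1) 0.28 (adjusted p = 0.166), with adjusted p from 1.93e-05 to 0.168 over 18 alternatives. In FPKM it had 12.9, 10.8 and 8.86 after depletion and 8.56, 8.56 and 8.95 in controls, with replicate 3 inside the control range. ATG12 (ENSG00000145782.11) lies on chromosome 5 from 115828200 to 115841858 on the minus strand (GRCh38, GENCODE 29). Its 5′ end shares 378 exon bases with AP3S1, a gene for an adaptor subunit of vesicle traffic on the opposite strand, whose start lies 377 bases from that of ATG12. AP3S1 had a log2 fold change of 0.74 ± 0.16 (edgeR adjusted p = 0.00643), with 63.2 CPM after depletion and 37.9 CPM in controls. The libraries were directional per the labels, but no source states if strand was used when reads were counted, and the part of shared reads in either rise was not tested.

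ATG5, the acceptor of ATG12, had 15.7, 12.4 and 11.6 CPM in BCLAF1-depleted replicates 1 to 3 and 17.5, 17.4 and 16.5 CPM in control replicates 1 to 3. The groups did not overlap, but replicate 1 lay close to the lowest control, and the log2 fold change of -0.38 ± 0.14 missed the threshold (edgeR adjusted p = 0.0607). It was past the threshold without BCLAF1-depleted replicate 1 (-0.54, adjusted p = 0.00356), on log2(FPKM + 1) (-0.53, adjusted p = 0.0376) and when genes of low counts were kept (-0.42, adjusted p = 0.0437), within a range of 0.00356 to 0.343 over 18 alternatives. With a trend of length and GC content removed, the log2 fold change of ATG5 was weaker, at -0.17 (edgeR adjusted p = 0.311). ATG5 (ENSG00000057663.11) lies on chromosome 6 from 106045423 to 106325791, minus strand.

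ATG16L1, which binds the ATG12-ATG5 conjugate and brings it to the membrane, fell to 33.9, 25.9 and 22.3 CPM in BCLAF1-depleted replicates, against 42.7, 44.1 and 42.7 CPM in control replicates 1 to 3. Every depleted library was below every control, and replicate 1 was the closest to them. Means were 27.4 ± 5.94 CPM after depletion and 43.2 ± 0.823 CPM in controls (SD, n = 3 each). The log2 fold change was -0.66 ± 0.15, or 0.635 of the control level (edgeR adjusted p = 0.00984). ATG16L1 alone among the 10 genes was called in every one of the 18 alternatives, with log2 fold changes from -0.96 to -0.53 and adjusted p from 5.77e-05 to 0.0416. The gene (ENSG00000085978.20) lies on chromosome 2 from 233210051 to 233295674, plus strand, and shares no exon bases with another annotated gene.

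Because these subunits are made from separate genes, their ratios in FPKM were compared per library, which removes any scaling of whole libraries. Trends of length or GC content that differ between libraries were not removed from the ratios. ATG12 over ATG5 was 3.09, 3.79 and 3.75 in BCLAF1-depleted replicates 1 to 3 and 1.73, 1.73 and 1.88 in control replicates 1 to 3. This is a 1.98-fold higher ratio (exact permutation test, two-sided p = 0.1, the smallest that 3 against 3 libraries allow; 0.133 after adjustment over 4 ratios). ATG16L1 over ATG5 was 2.12, 2.05 and 1.89 after depletion and 2.40, 2.48 and 2.53 in controls. It was lower in all 3 depleted libraries, at 0.817 of the control ratio (exact permutation p = 0.1, adjusted 0.133). The direction of both ratios was the same without any 1 library, with 1 added to each FPKM and in CPM. No test of this size can pass 0.05.

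**Figure D2:**
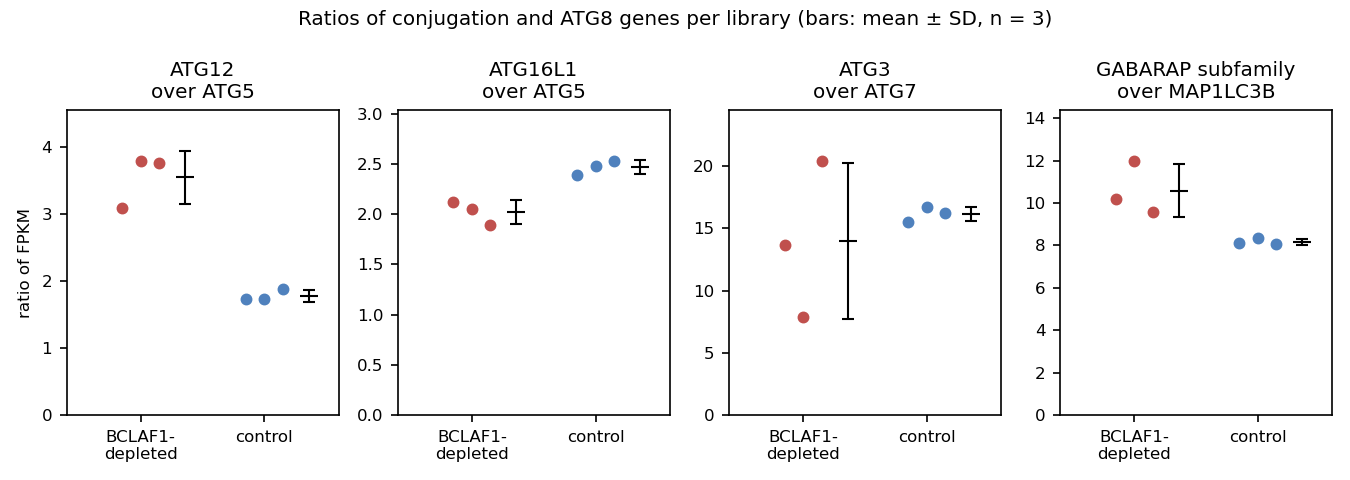
Ratios of FPKM per library (vertical axes, from 0) in BCLAF1-depleted (red, left) and control libraries (blue, right), with bars for mean ± SD (n = 3). The groups are separate for ATG12 over ATG5, ATG16L1 over ATG5 and the summed GABARAP subfamily over MAP1LC3B, while ATG3 over ATG7 runs from 7.85 to 20.4 after depletion, around the controls at 15.5 to 16.7.

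Among the enzymes upstream, none passed the test. ATG7, the shared E1, had 12.4, 18.9 and 13.3 CPM in BCLAF1-depleted replicates 1 to 3 and 12.3, 11.6 and 11.7 CPM in control replicates 1 to 3. Replicate 2 stood apart, and the other depleted libraries were just above the controls (0.33 ± 0.17, edgeR adjusted p = 0.144). ATG7 was past the threshold without BCLAF1-depleted replicate 1 (0.43, adjusted p = 0.0498) and with the replicate block together with the length and GC correction (0.44, adjusted p = 0.0399), in a range up to 0.972. It shares 1596 exon bases with VGLL4 on the opposite strand, which was at -0.03 ± 0.13 (edgeR adjusted p = 0.863).

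ATG3, the E2 for ATG8 proteins, had 104.8, 91.6 and 168.2 CPM in BCLAF1-depleted replicates 1 to 3 and 117.4, 120.0 and 117.1 CPM in control replicates 1 to 3. Depleted replicates 1 and 2 were below all controls and replicate 3 was above them, so the log2 fold change of 0.04 ± 0.20 (edgeR adjusted p = 0.89) averages libraries on opposite sides of the controls. Replicate 3 is also the library with 19.3% mitochondrial counts, whose part in this was not tested. Without it the log2 fold change was -0.27 (adjusted p = 0.0888, the lowest over the alternatives, which reached 0.993). ATG3 over ATG7 varied accordingly, from 7.85 in replicate 2 to 20.4 in replicate 3, and did not separate the groups (exact permutation p = 0.7). ATG3 shares 151 exon bases with SLC35A5 on the opposite strand, which was at -0.25 ± 0.13 (edgeR adjusted p = 0.165), and the part of shared reads was not tested.

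ATG10, the E2 for ATG12, was the least abundant of the 10 by FPKM. It had 7.5, 6.89 and 5.45 CPM in BCLAF1-depleted replicates 1 to 3 and 7.92, 7.19 and 8.05 CPM in control replicates 1 to 3, which overlap (-0.22 ± 0.16, edgeR adjusted p = 0.289). Near its 3′ end it shares 374 exon bases with RPS23, a far more abundant ribosomal protein gene on the opposite strand. RPS23 had 983 CPM after depletion and 628 CPM in controls (0.65 ± 0.16, edgeR adjusted p = 0.0116), and the part of shared reads was not tested.

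Among the ATG8 genes, GABARAP rose, with 75.3, 116.0 and 136.2 CPM in BCLAF1-depleted replicates 1 to 3 and 69.4, 71.6 and 78.3 CPM in control replicates 1 to 3. Replicates 2 and 3 were above every control, and replicate 1 was not. The log2 fold change was 0.58 ± 0.19, a 1.49-fold higher level (edgeR adjusted p = 0.0398). The call was lost in 11 of 18 alternatives, which include leaving out any 1 control (adjusted p 0.0902 to 0.128) or BCLAF1-depleted replicate 2 or 3 (0.117 and 0.12). GABARAP (ENSG00000170296.8; chromosome 17, 7240014 to 7242770, minus strand) has 2266 exon bases, which places it in the shortest of 5 equal length classes of tested genes. It shares 691 exon bases with AC120057.2 on the same strand and 571 with AC120057.3 on the opposite strand, which had 288 and 9 counts in all 6 libraries together. The part of shared reads in the rise of GABARAP was not tested. In the shortest class the median log2 fold change was 0.35 and 28.6% of genes were called higher, against -0.19 and 10.3% in the longest class. With a smooth trend of length and GC content removed from each library, GABARAP was at 0.36 (adjusted p = 0.141). ATG12, with 8888 exon bases, lies in the longest class and was then at 0.88 (adjusted p = 0.000487). In that fit 1 of the 10 genes, ATG12, was called higher and 1, ATG16L1, lower (18.1% and 16% of all genes tested there).

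GABARAPL1, the closest relative of GABARAP, had 60.6, 48.6 and 53.6 CPM in BCLAF1-depleted replicates 1 to 3 and 62.8, 63.5 and 69.5 CPM in control replicates 1 to 3. All depleted libraries were below all controls, by a margin that was small for replicate 1 (-0.27 ± 0.12, edgeR adjusted p = 0.112). It was past the threshold without that library (-0.37, adjusted p = 0.0144) and on log2(FPKM + 1) (-0.53, adjusted p = 0.0297), in a range of 0.0144 to 0.302. GABARAPL1 shares 329 exon bases with AC115676.1 on the opposite strand, for which no counts were given. GABARAPL2, also called GATE-16, had 51.3, 58.3 and 42.3 CPM after depletion and 46.8, 45.7 and 38.3 CPM in controls, which overlap (0.22 ± 0.15, edgeR adjusted p = 0.266).

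MAP1LC3B, the gene of the LC3B protein, had 26.9, 27.7 and 34.3 CPM in BCLAF1-depleted replicates 1 to 3 and 32.0, 31.2 and 32.1 CPM in control replicates 1 to 3. Depleted libraries lay on both sides of the controls (-0.10 ± 0.13, edgeR adjusted p = 0.564). In FPKM it was 8.08, 7.18 and 7.86 after depletion and 10.2, 9.96 and 10.4 in controls, and the change of -0.36 on the log2(FPKM + 1) scale passed (limma-trend adjusted p = 0.0396, range 0.0396 to 0.777 over the alternatives). On that scale the median of all genes was -0.14. MAP1LC3B shares 150 exon bases with FBXO31 on the opposite strand, which was at 0.0014 ± 0.13 (edgeR adjusted p = 0.994), and the part of shared reads was not tested.

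**Figure D3:**
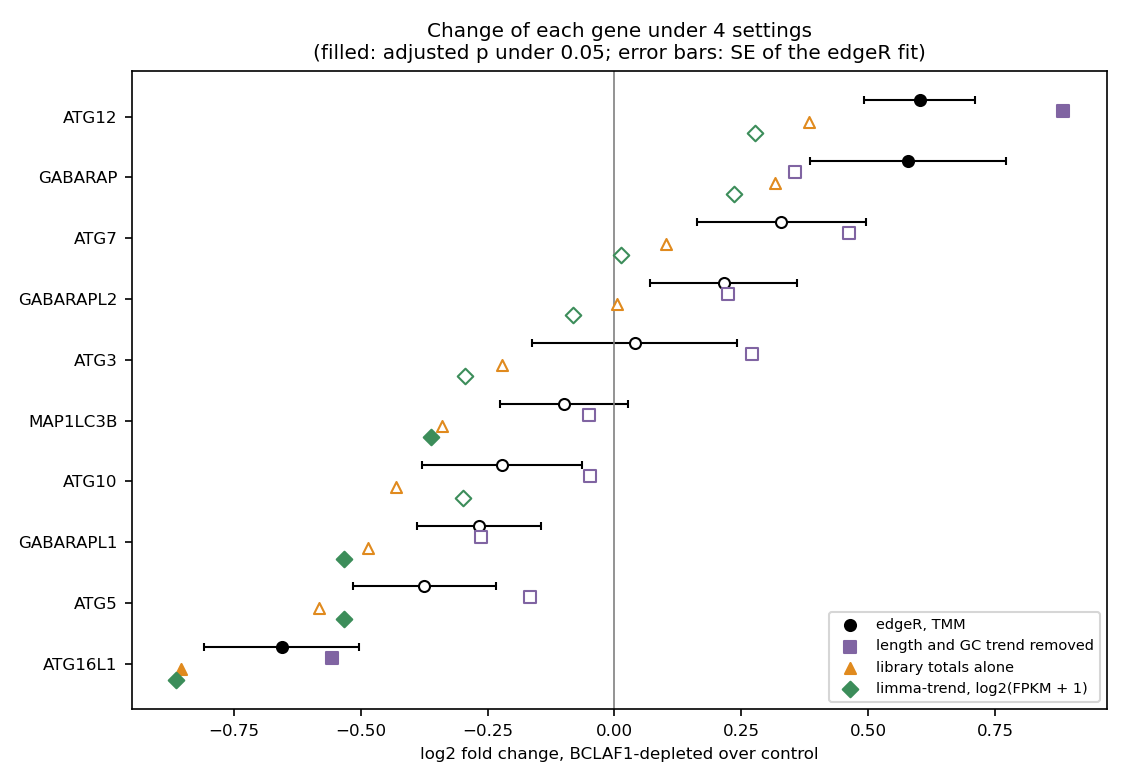
Log2 fold change (horizontal axis, BCLAF1-depleted over control) of each gene under 4 settings, with filled symbols for an adjusted p under 0.05 and bars for the SE of the edgeR fit. ATG16L1 is filled under all 4, ATG12 under 2 and GABARAP under 1, and values by library totals or FPKM lie to the left of the TMM values for every gene.

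The 4 ATG8 genes can be read as a pool of transcripts. Summed FPKM of the 4 genes was 90.5, 93.2 and 83.2 in BCLAF1-depleted replicates 1 to 3 and 93.0, 93.0 and 93.9 in control replicates 1 to 3. These FPKM are not TMM-scaled, and on log2(FPKM + 1) the median of all genes was -0.14, so a comparison of sums between groups depends on scaling. Summed in TMM-scaled CPM, which is not scaled by length, depleted replicates 2 and 3 lay above every control and replicate 1 within their range. Shares within a library do not depend on the scaling of whole libraries. GABARAP took 33.2, 42.9 and 49.9% of this sum after depletion and 31.7, 32.7 and 35.8% in controls. GABARAPL1 took 16.3 ± 3.53% after depletion and 22.6 ± 1.28% in controls, and MAP1LC3B took 8.69 ± 0.897% after depletion and 10.9 ± 0.171% in controls (SD, n = 3 each), both without overlap. Shares of GABARAPL2 overlapped, at 33.1 ± 6.39% after depletion and 33.1 ± 3.50% in controls. The summed GABARAP subfamily over MAP1LC3B was 10.2, 12.0 and 9.58 after depletion and 8.12, 8.34 and 8.06 in controls, 1.29-fold higher (exact permutation p = 0.1, adjusted 0.133).

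**Figure D4:**
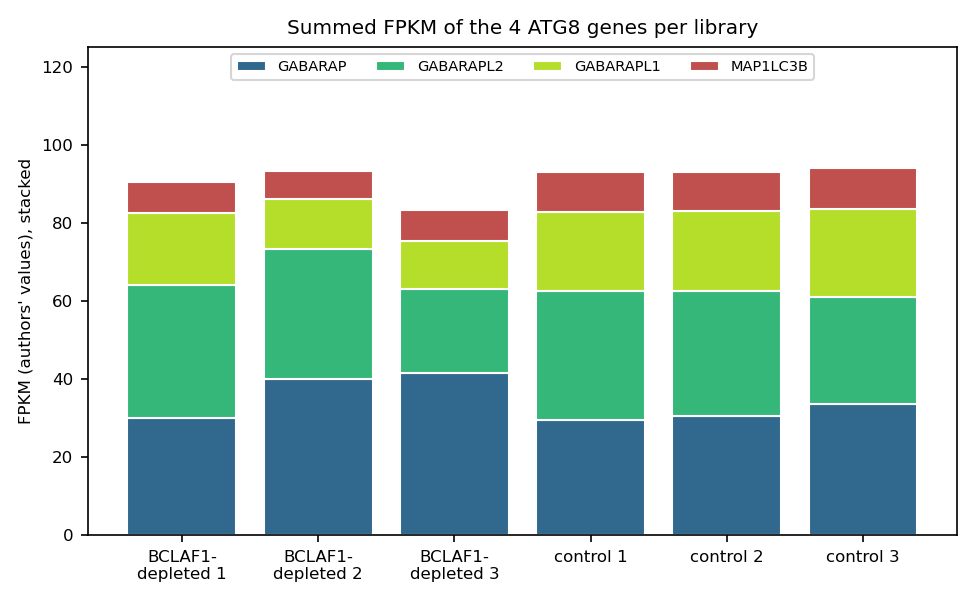
Authors' FPKM of the 4 ATG8 genes stacked per library (vertical axis, from 0), with BCLAF1-depleted replicates 1 to 3 at the left and controls 1 to 3 at the right. The totals, which are not TMM-scaled, lie between 83.2 and 93.9 FPKM. The GABARAP segment reaches 40.0 and 41.5 FPKM in depleted replicates 2 and 3, against at most 33.6 FPKM in controls.

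By position, groups did not overlap in CPM for 5 of the 10 genes, of which ATG12 and ATG7 were higher and ATG16L1, ATG5 and GABARAPL1 lower. Among all tested genes this held for 25.3% in the higher and 26.6% in the lower direction, so the count of 5 is near the background. GABARAP is the called gene for which the groups did overlap.

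Of 11 other genes of the ATG8 system, 9 were tested, 1 rose and none fell (median log2 fold change 0.09). That is 11.1% called, beside 35.8% of all tested genes (17.8% higher and 18% lower). At an unadjusted p under 0.05 and in DESeq2, likewise, none of the 9 was lower. The riser was MAP1LC3C, a further LC3 gene that serves in selective autophagy of bacteria. It had only 19, 15 and 12 counts in BCLAF1-depleted replicates 1 to 3 and 5, 6 and 5 counts in controls (1.92 ± 0.41, edgeR adjusted p = 0.00642), a level of 0.450 ± 0.0864 CPM after depletion and 0.117 ± 0.0161 CPM in controls (SD, n = 3 each). None of the genes for ATG4 proteases, which trim ATG8 proteins before conjugation and free them afterwards, passed the test. ATG4A was at -0.08, ATG4B at -0.0067, ATG4C at 0.20 and ATG4D at 0.31 (edgeR adjusted p 0.145 to 0.971). The near-identical copies MAP1LC3B2 and GABARAPL3 had 0 to 3 counts per library, so few reads had been assigned to them.

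Of 20 genes that act before conjugation, in initiation, lipid supply and recruitment of the conjugation machinery, 8 fell and 1 rose (median log2 fold change -0.33), beside 18% lower and 17.8% higher among all tested genes. PIK3R4, the regulatory subunit of the class III PI3-kinase, had 10.4, 6.22 and 6.44 CPM in BCLAF1-depleted replicates and 14.6, 13.8 and 14.2 CPM in controls (-0.89 ± 0.19, edgeR adjusted p = 0.00723). NRBF2, a partner of the same kinase complex, was at -0.80 ± 0.16 (adjusted p = 0.00532) and the lipid transfer protein gene ATG2B at -0.72 ± 0.15 (adjusted p = 0.00665), or -0.46 with the length and GC trend removed (adjusted p = 0.0198). PIK3C3, the catalytic subunit, was at -0.61 ± 0.13 (adjusted p = 0.00581), and at -0.31 once the length and GC trend was removed (adjusted p = 0.0573, range 0.000445 to 0.085). WIPI2, which recruits ATG16L1 to the membrane, was at 0.07 ± 0.11 (adjusted p = 0.65), and WDR45, the 1 gene that rose, at 0.54 ± 0.17 (adjusted p = 0.0337). Both were picked for mention with their values known. The call of WDR45 was lost with library totals alone and on both FPKM scales. It was also lost without BCLAF1-depleted replicate 2 or 3, or without any 1 control. With the length and GC trend removed 5 of the 20 genes fell, beside 16% of all genes tested there. Without BCLAF1-depleted replicate 3 it was 5, beside 2479 of 16286 tested genes. Without any 1 control it was 4, beside 1549 to 1669 of 16203 to 16261 tested genes. Without BCLAF1-depleted replicate 1 it was 12, beside 25.8% of all tested genes. With library totals alone 10 fell, beside 23% of all, and on both FPKM scales 12 fell, beside 4453 and 4381 of 15906 genes. The 20 genes share their libraries with the 10, and the difference between the lists was not tested.

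Other systems that conjugate ubiquitin-like proteins, which use E1 and E2 enzymes as ATG12 and ATG8 do, served for comparison. Of 22 genes of the UFM1, SUMO, NEDD8, URM1 and ISG15 systems, 7 rose and 1 fell (median log2 fold change 0.21). In all 36.4% of the 22 were called, beside 35.8% of all tested genes (17.8% higher and 18% lower). The interferon-induced modifier gene ISG15 rose to 9.89, 16.5 and 13.1 CPM in BCLAF1-depleted replicates, against 6.95, 6.40 and 6.78 CPM in controls (0.97 ± 0.18, edgeR adjusted p = 0.00385). DDRGK1, an adaptor of UFM1 conjugation, rose by 0.94 ± 0.21 (adjusted p = 0.00794) and the modifier gene NEDD8 by 0.73 ± 0.18 (adjusted p = 0.0129). NEDD8 lost its call with library totals alone (0.48, adjusted p = 0.0667), on both FPKM scales (adjusted p 0.0658 and 0.0673) and without control replicate 3 (0.69, adjusted p = 0.0589). With the length and GC trend removed, ISG15 was at 0.58 (adjusted p = 0.0081) and DDRGK1 at 0.62 (adjusted p = 0.0214). UBA7, the E1 of ISG15, had only 10, 9 and 15 counts after depletion and 5, 7 and 4 in controls (1.49 ± 0.47, adjusted p = 0.0318). The call of UBA7 was lost in 9 alternatives, which include leaving out BCLAF1-depleted replicate 3 or any 1 control. The others were DESeq2 (adjusted p = 0.0568), library totals alone (0.0615), no low-count filter (0.0816) and the FPKM scales (0.146 and 0.0639). The 1 gene that fell was SAE1, a subunit of the SUMO E1 (-0.39 ± 0.13, adjusted p = 0.0442), also picked with its value known. With library totals alone these 22 genes gave 2 higher and 4 lower calls, beside 8.07% higher and 23% lower among all tested genes. Without any 1 control 3 or 4 of the 22 were higher and 0 lower. In those fits 1383 to 1519 of 16203 to 16261 tested genes were higher and 1549 to 1669 lower.

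**Figure D5:**
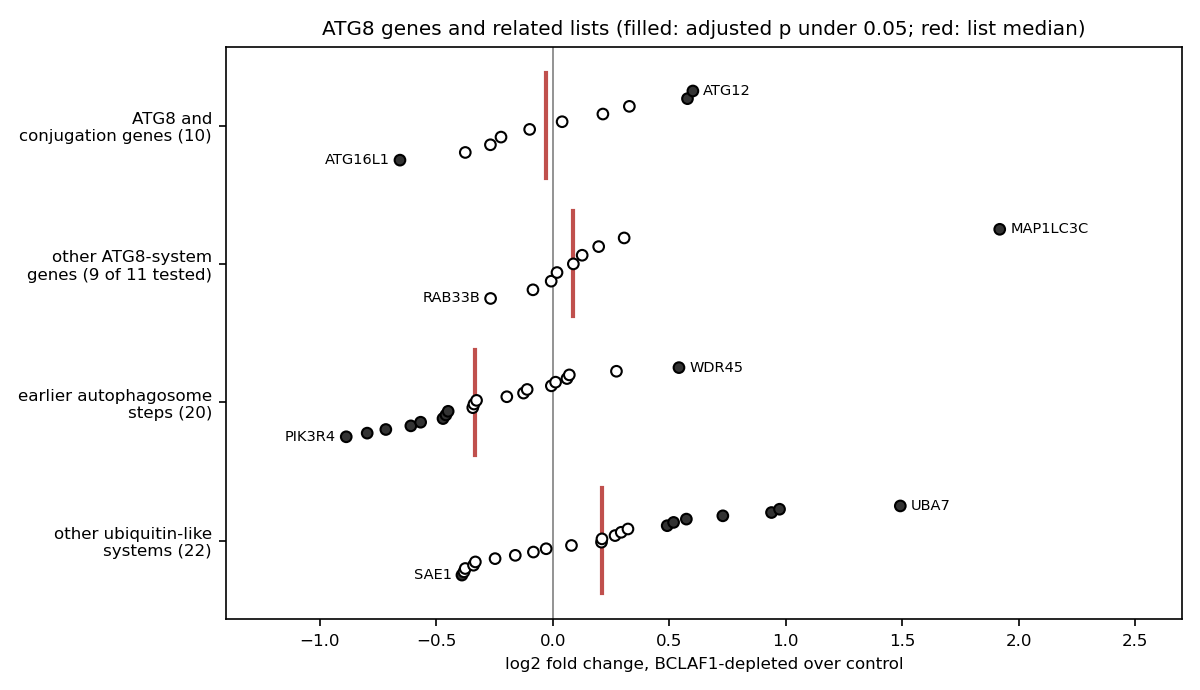
Log2 fold change (horizontal axis, BCLAF1-depleted over control) of every tested gene in the 10 ATG8 and conjugation genes and 3 related lists (rows), with filled points for an adjusted p under 0.05 and red lines for list medians. The medians lie at -0.03, 0.09, -0.33 and 0.21 from top to bottom, and the lowest and highest gene of each list is named.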

How the data were processed

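Polyadenylated RNA of A549 cells was sequenced from directional libraries (3 BCLAF1-depleted and 3 control, grouped by their labels). The authors deposited raw read counts for 29122 genes and FPKM for 28878 genes, 1 column per library. The submitters' processing notes name GRCh38, bcl2fastq, TopHat2 and edgeR, and neither a counting tool nor an annotation release or strand setting is stated in the labels. Oligo(dT) selection makes levels depend on intact transcripts.

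Counts were fitted with edgeR 4.0.16 (R 4.3.3; quasi-likelihood, group only, TMM, filterByExpr with minimum count 10 and total 15) over all genes, with Benjamini-Hochberg adjustment, and called under 0.05. SE is the log2 fold change over the root of F. CPM are TMM-scaled. Ratios used FPKM. Lengths (union of exons), overlaps and GC content (longest transcript) came from GENCODE 29, matched by identifier for 99.2% of tested genes. Promoters came from RefSeq, by symbol, for all 10 genes. Alternatives used DESeq2 1.42.0, limma 3.58.1 and mgcv 1.9.3 (basis size 8), other scalings and filters, FPKM with pseudocounts of 1 and 0.1, the replicate block and each library left out. The fit was tested on simulated data with equal spread in both groups and no length trend. The deposited libraries differ from that in both, so the simulation does not show how reliable the calls are here. Replicates differed by more than sampling noise in every pair, so none was merged. The 10 genes and the lists were chosen with earlier results of these data known. Apart from the 10, BCLAF1 and MED23, the rule for naming took up to 4 called genes per list with the largest change, and the 3 genes most correlated with each of the 2 most abundant ATG8 genes.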

Additional observations from a re-analysis of the deposited data

How the results depend on the processing

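ATG16L1 kept its direction and call in all 18 alternatives, ATG12 its direction in all and its call in 15, and GABARAP its direction in all and its call in 7. With library totals alone, 1283 genes were higher, none of the 10, none of the 20 genes of earlier steps (0), and 2 of 22 other ubiquitin-like genes, while 4 of the 22 were lower. On log2(FPKM + 1) and log2(FPKM + 0.1), 1131 and 1126 genes were higher and 4453 and 4381 lower. In both FPKM settings 0 of the 10 were higher and 4 lower, 0 genes of earlier steps were higher, and of other ubiquitin-like genes 2 were higher and 6 lower. Higher genes among the 10 numbered 1 with limma-voom and 1 with the length and GC trend removed, and lower ones 2 with no low-count filter. With the trend removed, without and with the replicate block, 5 genes of earlier steps and 2 other ubiquitin-like genes were lower. Of other ubiquitin-like genes 0 were lower with upper-quartile scaling or the 5 CPM filter, and 3 with no filter. The 5 CPM filter removed MAP1LC3C, leaving 0 higher other ATG8-system genes. Leaving out 1 library at a time gave 1383 to 3741 higher and 1549 to 4195 lower genes. Of the 10, 1 to 3 were higher and 1 to 3 lower, 1 to 2 other ATG8-system genes were higher, 0 to 2 genes of earlier steps were higher and 4 to 12 lower, and 3 to 9 other ubiquitin-like genes were higher and 0 to 5 lower. ATG3 over ATG7 ranged from -0.64 to 0.048 (log2) there, turning sign without BCLAF1-depleted replicate 2. ATG3, not called in any setting, turned to -0.22 with library totals, -0.0019 with no filter, -0.011 with the replicate block, -0.0091 with limma-voom, -0.30 in both FPKM settings and -0.27 without BCLAF1-depleted replicate 3, in a range of -0.27 to 0.21 over libraries left out. GABARAPL2, also never called, turned to -0.083 and -0.086 in FPKM. The cause of these shifts was not tested.

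Same-numbered libraries had correlated deviations of 0.036, 0.0466 and 0.119, so the numbers were not taken to pair them, although every library correlated best with its own number. With the replicate block 2886 genes were higher and 3121 lower, of the 10 again ATG12 and GABARAP higher and ATG16L1 lower, and 2 other ubiquitin-like genes were lower. Depth limits MAP1LC3C and UBA7, with at most 19 counts in a library.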

Other observations

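Over the 6 libraries, the genes whose log2 CPM followed GABARAP most closely were PPP1R12C (Pearson r = 0.998), RP11-95D17.1 (0.997) and HEIH (0.997). PPP1R12C, a regulatory subunit of a myosin phosphatase, had 66.6, 85.8 and 97.1 CPM in BCLAF1-depleted replicates 1 to 3 and 63.5, 65.9 and 69.0 CPM in control replicates 1 to 3. Those closest to GABARAPL2 were RP11-823P9.4 (0.993), C1orf233 (0.993) and C11orf73 (0.992). The first 2 lay at low levels, of 0.104 to 0.704 CPM and 0.603 to 2.20 CPM over the 6 libraries, and C11orf73 at 10.6 to 17.0 CPM. The points share libraries, scaling and the group difference, so these values describe likeness only.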
